A study of Mus musculus with 2 samples.

Results

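Scx, Mkx, Tnmd, Thbs4, Kera and Fmod are 6 genes of the tendon lineage, and their levels and transcripts were measured here in limbs of B6NCrl mouse embryos at embryonic day 13.5. The 6 were taken as a list of gene symbols by their known roles, a rule with no measured value in it though earlier results of these data were known, and all 6 were found among the 43346 Ensembl genes of the tables. The material is 1 group, healthy limb from embryos of both sexes pooled, with 2 libraries numbered as biological replicates 1 and 2. Each library started from 10 ng of RNA longer than 200 nt with synthetic spike-in transcripts added. Tissue entries are separate for the libraries but share a donor entry, so the spread between them may be partly technical, and the labels name neither forelimb nor hindlimb. The libraries held 31927117 and 43194518 expected counts, which are reads assigned to genes by a model. No conditions can be compared within 1 group, and the text describes the levels of the 6 genes, their order, their transcripts and the difference between libraries.

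Tendons form from mesenchymal progenitors that lie between muscle and skeleton, and their cells lay down parallel collagen fibrils. Scx encodes a basic helix-loop-helix factor that marks these progenitors, and Mkx encodes a homeobox factor related to the Iroquois family that promotes collagen fibre growth. Tnmd encodes tenomodulin, a transmembrane glycoprotein of differentiated tendon cells, and its expression depends on Scx in the mouse. Thbs4 encodes a pentameric thrombospondin of the matrix where muscle joins tendon. Kera (keratocan) and Fmod (fibromodulin) encode small leucine-rich proteoglycans that bind collagen fibrils, and keratocan is best known from the cornea.

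The deposited transcripts of Thbs4 differ in the sequence that precedes a shared exon, and the letters at that junction are shown first. Whether reads over these letters separated the forms was not tested. The deposited tables list a full-length form, Thbs4-201, and a short form annotated as a retained intron, Thbs4-202. Both read into exon 7 (chromosome 13, 92774681 to 92774883, minus strand, mm10). In the full-length form exon 7 follows exon 6, and in the short form it follows 91 bases of the intron before it. In the lines below, 5′ to 3′ and from GENCODE M21, capitals mark the 30 bases before exon 7, from exon 6 or from the intron, and lower case the first 30 bases of exon 7, which both forms share.
Thbs4-201: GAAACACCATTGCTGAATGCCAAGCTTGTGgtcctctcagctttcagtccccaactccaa
Thbs4-202: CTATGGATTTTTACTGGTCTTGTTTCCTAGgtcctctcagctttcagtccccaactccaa

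The sequence before the start site was available for 4 of the 6 genes, from RefSeq's promoter windows on the same build, and differed widely in base composition. The stretch from 250 to 51 bases before the start was read, so that no transcribed base is included for the 3 genes printed. It is shown for the member with the richest GC content (Thbs4, 68.0% GC, at or above which lay 11.2% of 32851 windows), the one with the lowest (Tnmd, 38.0% GC) and Fmod near the median of all windows (51.0% against 51.5%). Kera had 40.0% GC, and its window is not printed because it lies inside the first exon of the GENCODE model. Capitals mark the E-box CANNTG, a motif of the class that basic helix-loop-helix factors bind. The pattern reads the same on both strands, whereas the matched letters, CAAATG in Thbs4 and CATCTG in Fmod, do not. Thbs4 (chr13:92794869-92795068, minus strand) and Fmod (chr1:134037004-134037203, plus strand) held 1 match each, and Tnmd (chrX:133850758-133850957, plus strand) and Kera held none in this stretch. The whole window of 300 bases, which runs past the start, was read first and held 2 matches in Thbs4 and the same number as the shorter stretch in the other 3 genes. At least 1 match was present in 59.0% of all windows, so a match is common, and the matches are descriptions of letters and not binding sites.
Thbs4: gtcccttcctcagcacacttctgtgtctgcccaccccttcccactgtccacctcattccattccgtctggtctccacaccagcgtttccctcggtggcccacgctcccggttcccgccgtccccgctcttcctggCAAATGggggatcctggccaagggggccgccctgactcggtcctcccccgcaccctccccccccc
Fmod: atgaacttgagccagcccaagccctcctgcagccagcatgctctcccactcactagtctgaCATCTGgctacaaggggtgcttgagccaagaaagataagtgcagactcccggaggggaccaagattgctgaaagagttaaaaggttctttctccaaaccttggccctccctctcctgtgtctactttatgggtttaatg
Tnmd: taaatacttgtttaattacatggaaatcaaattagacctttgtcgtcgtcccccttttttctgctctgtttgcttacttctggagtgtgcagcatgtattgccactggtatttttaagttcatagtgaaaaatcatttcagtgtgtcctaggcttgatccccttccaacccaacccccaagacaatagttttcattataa

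All 6 tendon genes were well expressed. Levels are given in TPM, the deposited abundance that is divided by transcript length and scaled to the same total in each library, which allows genes to be compared. At least 1 TPM in both libraries was reached by 6 of 6 members, against 34.6% of all Ensembl genes, and at least 10 TPM by 6 of 6, against 21.2%. All 6 members are protein-coding, as are only 21474 of the 43346 Ensembl genes, so these shares overstate the contrast with genes of like type. The shares among protein-coding genes were not computed, and the place of each member among them is given below. The median of the members was 41.5 TPM, and that of all genes at 1 TPM or more was 17.2 TPM. In bulk tissue fewer cells of a type and less RNA per cell cannot be told apart, so these levels do not give the number of tendon cells.

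Of the regulators, Scx stood at 43.1 TPM in replicate 1 and 47.6 TPM in replicate 2 (45.3 ± 3.17, SD, n = 2), from 931 and 1365 expected counts. Mkx stood at 45.2 and 49.5 TPM (47.3 ± 3.03), from 2450 and 3493 counts. Both factors were thus at nearly the same level in each library, and 82.9% and 83.6% of the 21474 protein-coding genes lay below them. The deposited credibility intervals of the libraries overlapped for both genes, from 39.4 to 44.7 and 44.1 to 49.1 TPM for Scx and from 41.0 to 49.0 and 45.3 to 53.3 TPM for Mkx. The level of these intervals is not given in the sources used here, and they cover counting and read assignment only.

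Of the products, Kera was the highest of the 6, with 73.7 TPM in replicate 1 and 76.7 TPM in replicate 2 (75.2 ± 2.13). Fmod reached 34.9 and 40.4 TPM (37.6 ± 3.87), higher in replicate 2, with intervals of 32.7 to 35.6 and 38.3 to 41.0 TPM that did not overlap. Tnmd reached 35.4 and 34.6 TPM (35.0 ± 0.629), the smallest spread among the members. Thbs4 was lowest in both libraries and differed most between them, with 19.0 and 27.8 TPM (23.4 ± 6.24) and intervals of 17.3 to 20.3 and 26.2 to 28.9 TPM. The share of protein-coding genes below the member was 89.5% for Kera, 79.8% for Fmod, 78.5% for Tnmd and 71.7% for Thbs4. Intervals that do not overlap were found for 2 of 6 members, against 14.8% of the 9182 genes at 10 TPM or more.

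**Figure D1:**
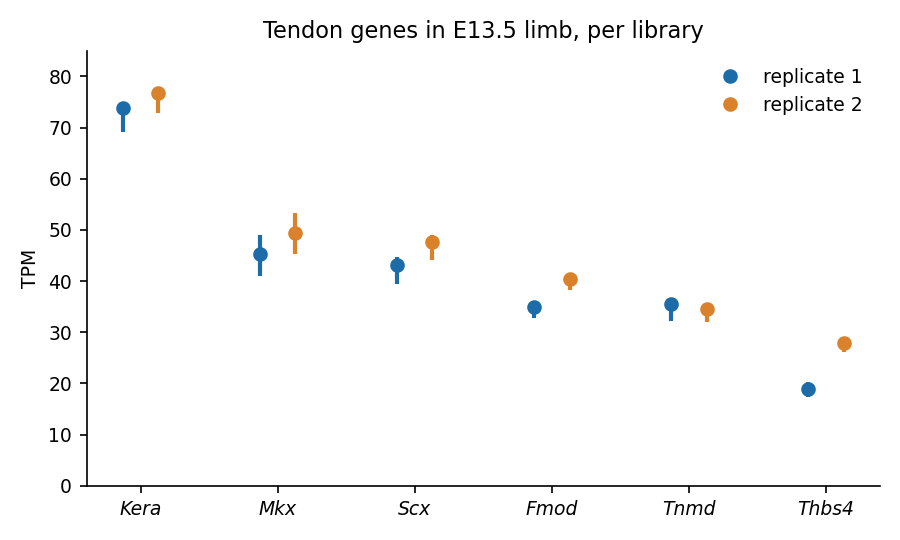
TPM (linear axis from 0) of the 6 tendon genes in replicate 1 (blue) and replicate 2 (orange), with lines for the deposited TPM credibility intervals of each library, some of which are hidden by the points. Kera lies above the other 5 genes in both libraries, and Thbs4 lies lowest, at 19.0 TPM in replicate 1 and 27.8 TPM in replicate 2.

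The order of the members by mean level was Kera, Mkx, Scx, Fmod, Tnmd and Thbs4, and the highest exceeded the lowest by 3.22-fold. Each of the 15 pairs was compared as a log2 ratio of TPM with 0.1 added. A pair counted as past the spread if its sign was shared by the libraries and its mean ratio exceeded 2 times a combined replicate SD, taken from the 500 genes nearest in TPM to each gene. This SD covers the difference between libraries only, and not errors of length or base composition that both libraries share. Under this rule 13 of 15 pairs were past the spread, and the other 2 were neighbours in the order. Thbs4 differed between the libraries by 5.59 times the SD of genes of like count. The combined SD therefore understates the difference between libraries for pairs with Thbs4. The share of all gene pairs that meet this rule was not computed, so the count describes the order of these genes only.

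Mkx over Scx gave log2 ratios of 0.07 and 0.06 against a combined SD of 0.12, so the regulators did not differ beyond the spread. Fmod over Tnmd gave -0.02 in replicate 1 and 0.22 in replicate 2 against a combined SD of 0.13, with opposite signs, and these products did not differ beyond the spread either. The remaining neighbours did. Kera exceeded Mkx by 1.59-fold, with log2 ratios of 0.70 and 0.63 and a combined SD of 0.11. Scx exceeded Fmod by 1.21-fold, with log2 ratios of 0.30 and 0.24 and a combined SD of 0.13. This pair fell within the spread without replicate 1, where the log2 ratio was 0.24. Tnmd exceeded Thbs4 by 1.52-fold, from a log2 ratio of 0.90 in replicate 1 and 0.31 in replicate 2, with a combined SD of 0.16. It too was within the spread without replicate 1, at 0.31.

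Across roles, the regulator Scx exceeded the product Tnmd by 1.29-fold and Thbs4 by 1.97-fold. Kera exceeded Fmod, its relative in the same protein family, by 2.00-fold. Every ratio over Thbs4 was smaller in replicate 2 than in replicate 1, which follows from the higher value of Thbs4 in replicate 2.

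**Figure D2:**
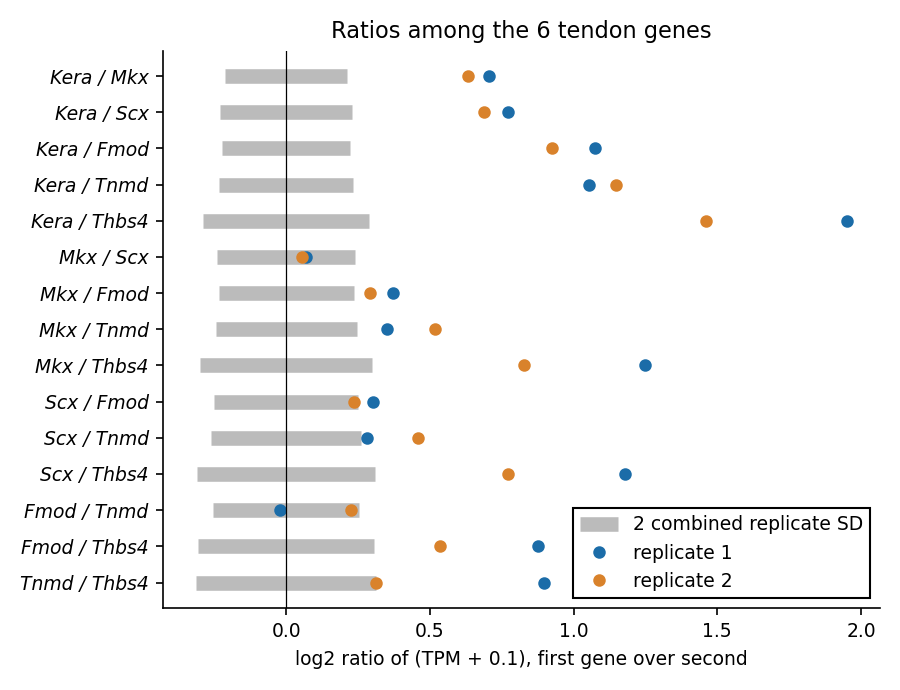
Log2 ratio of TPM + 0.1, first gene over second, for the 15 pairs of tendon genes, with a point for each library and a grey bar for 2 combined replicate SDs on either side of 0. Points of Mkx over Scx lie inside the bar, those of Fmod over Tnmd lie on both sides of 0, and the 5 ratios over Thbs4 have the widest gap between libraries.

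The order depends on division by length, and the annotated lengths differ between releases. The leading transcript in the tables was 1136 nt for Scx, 1950 nt for Kera and 3202 nt for Mkx, whereas GENCODE M21 gives 1035, 2280 and 3650 nt. For Tnmd (1353 nt), Thbs4 (3198 nt) and Fmod (3120 nt) both releases give the same length. Levels were not recomputed with the M21 lengths. Calls for pairs with Scx, Kera or Mkx, such as Mkx over Scx, therefore hold for the lengths in the tables only. Without division by length Fmod and Thbs4, which have long transcripts, had more expected counts than Scx: Fmod had 2197 and 3376 and Thbs4 1171 and 2344.

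Of the 6 genes, 3 had several transcripts in the tables and 3 had only 1, with 12 transcripts in all. Scx-201, Tnmd-201 and Kera-201 were the single forms of their genes and so held 100% of their TPM in both libraries. Among all genes at 10 TPM or more, 26.1% had 1 transcript. The leading transcript was the same in both libraries for 3 of 3 members with several forms, against 94.5% of the 6782 such genes at 10 TPM or more. A first rule, a leading share of at least 80% in both libraries, was met by 2 of 3 members and 34.2% of these genes. It was dropped after the values were seen, since Mkx lay at the limit, with 81.8% and 79.8%.

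Fmod-201, the full-length coding form, held 100% of the Fmod TPM in replicate 1 and in replicate 2. The short form Fmod-202 had 0 expected counts in both libraries, and its TPM interval reached up to 0.427 in replicate 1 and 0.326 in replicate 2. No read was therefore assigned to the short form in either library.

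Thbs4-201 held 95.0% of the Thbs4 TPM in replicate 1 and 98.1% in replicate 2 (96.5% ± 2.17). Thbs4-202, the form that reads from intron sequence into the exon at the junction printed above, held 4.99% and 1.92%. These shares rest on 6.49 and 4.87 expected counts, and the TPM intervals of the short form, from 0.240 to 2.40 and from 0.0986 to 1.68, overlap. The higher Thbs4 level of replicate 2 lay in the full-length form, which went from 18.0 to 27.3 TPM.

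Mkx had the most divided output. Mkx-201, which encodes the whole homeobox protein, held 81.8% of the Mkx TPM in replicate 1 and 79.8% in replicate 2 (80.8% ± 1.43). The median share of the leading transcript over the 6782 genes was 67.9%. Mkx-203, annotated as a retained intron, held 16.6% in each library. Mkx-202 held 1.60% and 2.29%, and Mkx-204, another retained-intron form, 0% and 1.33%. The remaining transcript, counted under Mkx in the tables and placed in the separate non-coding gene AC148004.2 by GENCODE M21, had 0 counts in both libraries.

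The share of Mkx-203 is far smaller in counts than in TPM. It is 425 nt long against 3202 nt for Mkx-201, and it received 51.0 and 74.1 expected counts, 2.08% and 2.12% of the counts of the gene. Its TPM intervals ran from 3.78 to 11.7 in replicate 1 and from 4.47 to 12.2 in replicate 2. With Mkx-204 added, the retained-intron forms held 16.6% in replicate 1 and 17.9% in replicate 2, and the wide intervals show that the precision within each library was low.

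**Figure D3:**
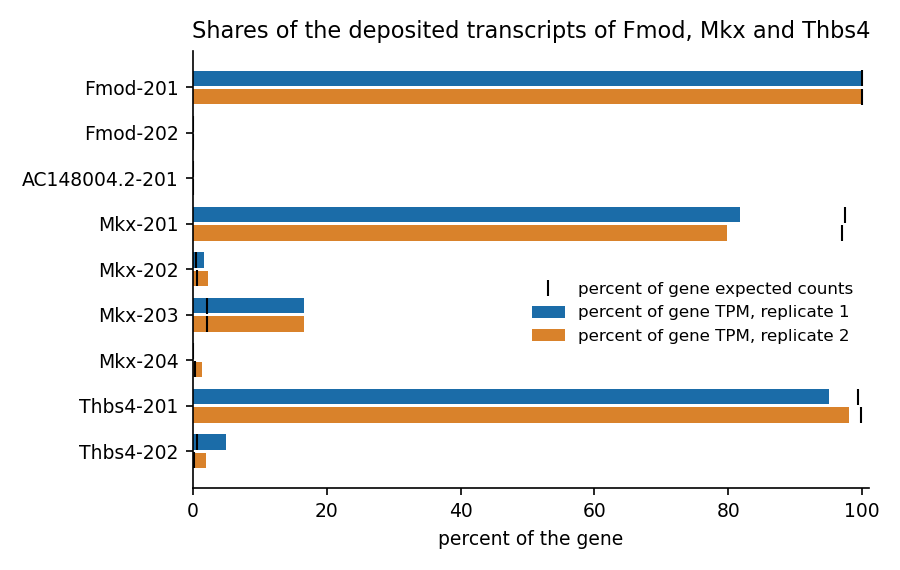
Percent of the gene's TPM (bars, replicate 1 blue, replicate 2 orange) and percent of its expected counts (black ticks) for the transcripts of Fmod, Mkx and Thbs4, where AC148004.2-201 is the transcript counted under Mkx. Mkx-203 holds 16.6% of Mkx TPM and 2.08% and 2.12% of its counts.

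Thbs4 differed most between the libraries, and the other 5 members were within 2 SD of the spread among genes of like count. Ratios between libraries are log2 of expected counts scaled by TMM, a factor computed over all genes, replicate 2 over replicate 1. Kera gave 0.04, Mkx 0.08, Scx 0.12, Fmod 0.19 and Tnmd -0.06, each less than 2 times the SD of that ratio over the 500 genes nearest in count, which was 0.09 to 0.12. Fmod was nearest to the limit: 21 of the 500 genes lay at least as far from 0, and with the SD of 100 genes (0.08) it was past 2 SD. No member was over 2-fold apart, against 1.21% of the 17406 genes with 10 or more counts in each library. Thbs4 gave 0.57, or 1.48-fold higher in replicate 2, against an SD of 0.10. It was the 1 member of 6 past 2 SD, against 4.31% of all genes tested. Of the 500 genes nearest in count, Thbs4 included, 1 lay at least as far from 0. After a correction for transcript length and GC content the Thbs4 ratio was 0.54.

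Comp, another pentameric thrombospondin and a gene of cartilage and tendon matrix, gave a like ratio. This likeness was picked out after the values were seen. Comp stood at 19.3 TPM in replicate 1 and 30.1 TPM in replicate 2, with a log2 ratio of 0.62 against an SD of 0.11. The other thrombospondins were closer between libraries. Thbs1 gave 0.17, Thbs2 0.09 and Thbs3 0.11, and of these Thbs1 was just past 2 SD, at an SD of 0.08, and was within it after the correction for length and GC. Thus 3 of 5 thrombospondins were past 2 SD, all higher in replicate 2, against 4.31% of all genes tested. These 3 include Thbs4 and Comp, which were singled out by these same ratios, so the count is no support for a trait of the family. After the correction 2 of 5 were past 2 SD, and the share of all genes after it was not computed.

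**Figure D4:**
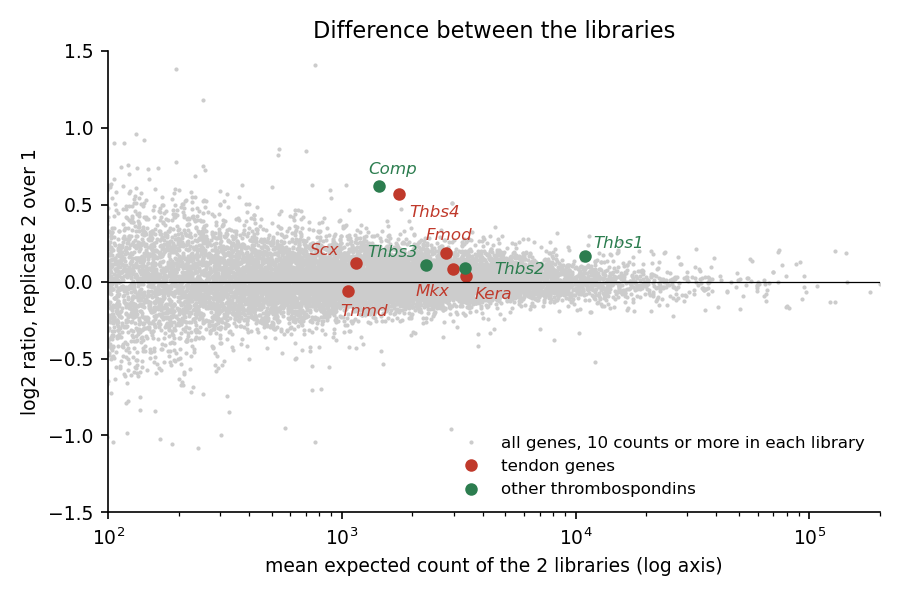
Log2 ratio of TMM-scaled expected counts, replicate 2 over replicate 1, against mean expected count (log axis) for genes with 10 or more counts in each library (grey; points beyond the axes are not drawn), with the tendon genes in red and other thrombospondins in green. Thbs4 at 0.57 and Comp at 0.62 lie above the other 5 tendon genes and the other 3 thrombospondins.

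Markers of the neighbouring tissues are given beside this difference. The 15 cartilage markers had a median log2 ratio of 0.08, from -0.21 to 0.53, and a summed level of 2107 TPM in replicate 1 and 2228 TPM in replicate 2. The 15 skeletal muscle markers had a median of 0.03, from -0.40 to 0.24, and a summed level of 2595 and 2661 TPM. The 9 osteoblast and perichondrium markers had a median of 0.11, from -1.53 to 0.39, and summed to 917 and 1064 TPM, or to 81.2 and 90.3 TPM without Col1a1, a collagen of many tissues. The 10 ectoderm markers had a median of 0.14, the 10 endothelial markers 0.02 and the 10 red cell markers -0.03. No marker in these lists was at 0, since each had a level of at least 0.1 TPM in both libraries. Past 2 SD were 5 of 15 cartilage markers (4 higher and 1 lower in replicate 2), 4 of 8 osteoblast markers with enough counts (3 higher, 1 lower), 2 of 15 muscle markers and 2 of 10 ectoderm markers (all higher), 3 of 10 red cell markers (all lower) and 0 of 10 endothelial markers, against 4.31% of all genes tested. After the correction for length and GC, 4 of 15 muscle and 4 of 10 ectoderm markers were past 2 SD. The corrected counts were 5 for cartilage, 3 for osteoblast, 3 for red cell and 0 for endothelial markers. The 5 cartilage markers were not the same set as before the correction. With corrected ratios, Acan (0.24) and Snorc (0.62) were higher in replicate 2, and Sox9 (-0.17), Sox5 (-0.20) and Col9a2 (-0.19) were lower. Of the muscle markers, Ttn was then past 2 SD and lower, at -0.15. The share of all genes after the correction was not computed. Markers past 2 SD in the direction of Thbs4 were thus found in the cartilage, osteoblast, muscle and ectoderm lists. Each of these lists also held markers lower in replicate 2. These were 6 of 15 cartilage, 4 of 9 osteoblast, 6 of 15 muscle and 2 of 10 ectoderm markers. The part of any of these tissues in the Thbs4 ratio was not tested.

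Scx lies inside another gene, which bears on its reads. On mm10 it spans chromosome 15 from 76457452 to 76459458 on the plus strand, within Bop1 (76452989 to 76477277, minus strand), a ribosome biogenesis gene. Of the 1035 exonic bases of Scx, 0 are exonic in Bop1. Bop1 stood at 52.6 and 55.6 TPM, close to Scx. Unspliced Bop1 RNA would cover Scx on the opposite strand, the use of strand in counting is not given in the sources used here, and a contribution to the Scx counts was not tested.

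Known partners of both regulators were expressed, those of Scx above it and those of Mkx on both sides of it. E proteins, the helix-loop-helix factors with which Scx pairs, were detected in 3 of 3 cases. Tcf4 stood at 254 TPM in replicate 1 and 257 in replicate 2, Tcf3 at 131 and 129, and Tcf12 at 101 and 96.3, all above Scx in both libraries. Of the Sin3 corepressor genes, reported as partners of Mkx, 4 of 4 were detected: Hdac2 at 263 and 258 TPM, Hdac1 at 209 and 205, Sap18 at 32.8 and 29.4 and Sin3a at 27.1 and 33.2. Hdac2 and Hdac1 lay above Mkx, and Sap18 and Sin3a below it. These partners are expressed in many cell types.

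The Iroquois genes, the homeobox relatives of Mkx, were detected in 6 of 6 cases but lay below Mkx. Irx5 was highest with 17.0 and 16.7 TPM, followed by Irx2 with 12.1 and 11.9, Irx3 with 11.6 and 10.6, Irx4 with 5.80 and 6.34, Irx1 with 5.93 and 4.47 and Irx6 with 4.84 and 4.61. In both libraries Mkx was thus above all 6 relatives.

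Signals that act on tendon progenitors were represented by 21 of 24 genes at 1 TPM or more in both libraries, with a median of 28.7 TPM. Led by the FGF receptor Fgfr2 (108 and 107 TPM), Gdf5 (88.8 and 84.0) and the TGF-beta ligand Tgfb2 (83.7 and 87.6), they ended with Gdf7 (0.0400 and 0.170), which had 1 and 6 counts. The other genes below the limit were Tgfb1, at 0.990 and 1.62 TPM, and the apical ridge ligand Fgf4, at 0.660 and 0.900. Of the TGF-beta ligands, which maintain tendon progenitors, Tgfb3 stood at 56.2 and 61.0 TPM, so that Tgfb2 and Tgfb3 were both above Scx and Tgfb1 was near 1 TPM. Of the 23 with enough counts to be tested, 1 was past 2 SD between libraries, against 4.31% of all genes. This was the FGF-responsive factor Etv5 (32.7 and 38.1 TPM). After the correction for length and GC 2 were past 2 SD, and the share of all genes in that setting was not computed.

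Other transcription factors reported in tendon were detected in 17 of 18 cases, with a median of 45.7 TPM. Sox9, which marks cartilage and the progenitors of tendon attachments, led with 188 and 174 TPM, followed by Tcf7l2 with 154 and 148 and Foxp1 with 114 and 116. Egr2 was lowest and was the gene below the limit, at 0.730 and 1.31 TPM. Past 2 SD between libraries were 3 of 18, against 4.31% of all genes, with Trps1 higher and Eya1 and Osr2 lower in replicate 2. After the correction 4 of 18 were past 2 SD, with no share of all genes computed for that setting.

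The matrix and cell products of tendon other than the members were detected in 30 of 30 cases, with a median of 70.4 TPM. Fibrillar collagens led, with Col3a1 at 1335 and 1460 TPM, Col1a1 at 835 and 973 and Col1a2 at 676 and 743, and Cilp2, a cartilage matrix gene, was lowest at 1.37 and 1.02. Collagens of skin, bone and general mesenchyme share these genes, so the list is not specific to tendon. Past 2 SD were 12 of 30, all higher in replicate 2, and 7 of 30 after the correction for length and GC, against 4.31% of all genes tested without it.

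Kera and Fmod were placed high in their family. Of 16 small leucine-rich proteoglycans and relatives 13 reached 1 TPM in both libraries. Kera was below Lum (353 and 326 TPM), Dcn (245 and 231) and Ogn (125 and 133), and above the remaining 12. Next to Fmod in level were Bgn, at 57.1 and 58.0 TPM, and Aspn, at 39.4 and 33.9, so that Aspn was above Fmod in replicate 1 and below it in replicate 2. Epyc (20.6 and 25.0 TPM), Chad (11.7 and 14.4), Prelp (8.18 and 8.80), Omd (2.01 and 3.30), Podnl1 (1.85 and 1.54) and Ecm2 (1.10 and 1.55) were lower. Podn (1.18 and 0.840), Optc (0.620 and 0.670) and Nyx (0.0800 and 0.0500) did not reach 1 TPM in both.

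Genes of this family lie in clusters, and neighbours differed widely in level. Kera (chromosome 10, 97606879 to 97613692, plus strand) lies between Lum (97565128 to 97572703) and Epyc (97644068 to 97682454), with Dcn (97479609 to 97518143) beyond Lum. Along the chromosome the levels in replicate 1 were thus 245 TPM for Dcn, 353 for Lum, 73.7 for Kera and 20.6 for Epyc. Fmod (chromosome 1, 134037254 to 134048277, plus strand) lies near Prelp (133910304 to 133921414, minus strand) and Optc (133897199 to 133907999, minus strand), both of which were below it. The eye gene Optc was at the lower end.

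**Figure D5:**
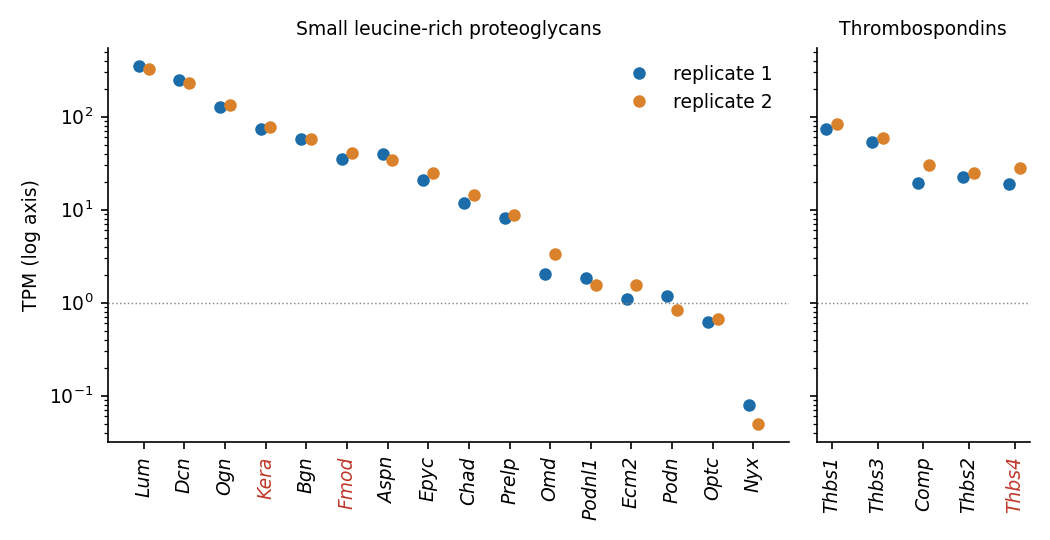
TPM (log axis) in replicate 1 (blue) and replicate 2 (orange) of the small leucine-rich proteoglycans (left) and thrombospondins (right), ordered by mean, with tendon genes in red and a dotted line at 1 TPM. Kera lies below Lum, Dcn and Ogn, Fmod below Bgn, and Thbs4 at 23.4 TPM in the mean is the lowest of 5 thrombospondins.

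Thbs4 (chromosome 13, 92751590 to 92794818, minus strand) was low within its family by a narrow margin. Thbs1 stood at 73.0 and 83.2 TPM, Thbs3 at 53.5 and 58.7 and Thbs2 at 22.7 and 24.6. Thbs4 was below Thbs2 in replicate 1 and above it in replicate 2, so the place of Thbs4 in the order changes between the libraries. Tnmd (chromosome X, 133850980 to 133865577, plus strand) has 1 close relative, the cartilage gene Cnmd (chondromodulin), which stood at 157 and 166 TPM, above Tnmd in both libraries. Mkx spans chromosome 18 from 6934518 to 7004780 on the minus strand. On the same strand, the non-coding gene AC148004.2 shares 201 of the 4095 exonic bases of Mkx, and how reads over these bases were assigned was not tested.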

How the data were processed

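Total RNA was sequenced from 2 libraries of 1 group, read as replicates 1 and 2 from the labels. Per the labels, reads were placed on mm10. Notes in the deposit name GENCODE M4 as the annotation. Aligner and quantifier names, and strandedness, were likewise not given in the sources used here. The authors deposited expected counts, which need not be whole, TPM and FPKM (scaled by effective length) and IsoPct, the percent of a gene's TPM held by each transcript. Members, lists and rules were chosen with earlier results of these data known. Rows with bare-number identifiers (26248, holding 0.000226% and 0.000148% of counts) and 1 further row were left out.

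Symbols matched 98.0% of 43346 identifiers. GENCODE M21, on the same assembly, gave positions and transcript types. Expected counts were rounded, and TMM factors were computed in edgeR 4.0.16 under R 4.3.3 from the 17406 genes whose count reached 10 in both libraries. DESeq2 1.42.0 gave alternative factors. Other steps used Python 3.11.15. Ratios between libraries had 0.5 counts added. No p-value was computed: 1 group allows no comparison of conditions, and pairs of genes were set against the spread instead. The spread calculation was run on simulated counts with a known spread, larger than that estimated here, and no trend of length or GC. That run checks the arithmetic only and not these libraries.

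Named genes were all members, the 3 highest and the lowest of the partner, signal, factor and matrix lists, lists of 6 genes or fewer in full, both protein families and overlapping genes. Marker lists are given as summaries, apart from Col1a1, Ttn and the cartilage markers past 2 SD after the correction, which were named after their values were seen. Tgfb1, Tgfb3, Fgf4, Etv5, Trps1, Eya1, Osr2 and Comp as a match to Thbs4 were singled out after their values were seen, and the call past 2 SD, the interval count, the leading-transcript rule, the promoter stretch and the correction for length and GC were also chosen then. That correction subtracts fitted lines, using medians in 50 bins of length and of GC (99.5% of genes with a mean of 100 or more counts had a GC value).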

Additional observations from a re-analysis of the deposited data

How the results depend on the processing

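No paired analysis was possible because the labels give 1 group. With expected counts not divided by length, 3 pairs reversed: the log2 ratio of Scx over Fmod became -1.27, of Scx over Thbs4 -0.56 and of Tnmd over Thbs4 -0.65, as their transcript lengths differ. On that scale Mkx over Fmod (0.10) and Scx over Tnmd (0.10) fell within the spread, and Mkx over Scx (1.38) and Fmod over Tnmd (1.37) were past it. Adding 0 or 1 TPM, posterior mean TPM and an SD over 100 genes changed the call of none of the 15 pairs. Without replicate 1, 13 of 15 kept their call. For the library ratios, an SD over 100 genes, chosen after seeing the data, put 2 members past 2 SD in place of 1, the second being Fmod (0.19), and the cause was not tested. Scaling by DESeq2 or spike-ins, TPM ratios, 5 counts added, no count filter and the length and GC correction left Thbs4 alone past 2 SD. Depth limits the shares of Mkx-202, Mkx-204 and Thbs4-202, which rest on 0 to 19.5 counts. Whether the leading transcript is the same in both libraries cannot be computed with either library left out. Posterior mean shares moved Mkx-201 to 79.2%, Mkx-203 to 16.9% and Fmod-201 to 99.7%. Among forms above 0, the largest relative move was in Mkx-204, from 0.665% to 1.40%, and Thbs4-202 went from 3.46% to 4.70%.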
